A study of Mus musculus with 24 samples.

Results

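Potassium channels are membrane proteins that let potassium ions leave or enter a cell, and they set the resting potential and the shape of electrical signals. The kinds of pore subunit distinguished here are voltage-gated, inward rectifier, tandem-pore and ion-activated subunits, which work with silent modifier subunits and with auxiliary proteins that carry no pore. In neural tissue the voltage-gated kinds are best known from neurons, while inward rectifiers such as Kcnj10 are typical of astrocytes, which take up potassium released by neurons. Neural stem cells (NSCs) are not excitable in the way neurons are, but they also hold a negative membrane potential.

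The 60 genes described here were all genes of the deposited expression table whose symbol is Kcn followed by letters and closing digits, out of 14922 genes. The gene annotation of GRCm38.p6 holds 92 protein-coding genes with such symbols, and the other 32 were not analysed here. By symbol, 24 of the 60 were voltage-gated, 9 inward rectifiers, 8 tandem-pore, 8 ion-activated (calcium, sodium or pH), 3 modifiers and 8 auxiliary. None of them was chosen by its level.

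RNA was sequenced from primary NSCs of the E14.5 mouse cortex, grown as adherent monolayers for fewer than 10 passages and all labelled female. FVB_WT (6 libraries of 5 lines) was FVB/NJ with unchanged Smchd1, and FVB_MD43 (5 libraries of 4 lines) was FVB/NJ homozygous for MommeD43, a point mutation in the chromatin repressor SMCHD1 made by ENU mutagenesis. B6GFP_WT (6 libraries of 4 lines) was C57BL/6J with Smchd1 fused to GFP; the labels give these cells as Smchd1+/+, whereas in the study they carry 2 copies of the fusion. B6GFP_MD43 (5 libraries of 4 lines) carried the MommeD43 change, made by CRISPR editing, on the same fusion. Strain and GFP fusion differed together and cannot be told apart, and "strain" below stands for both. Wherever MommeD43 cells of the strains are compared, the origin of the mutation (ENU or CRISPR) differed as well and cannot be separated either. Only batch 1 contained both strains, since FVB lines filled batch 2 and B6GFP lines batch 3, and the strain comparison rests on it.

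Values were log2 CPM, in which the read counts of each library are set to the same total, corrected for batch by the authors. A further 2 columns equalled the mean of their group mates and were left out, which left 22 libraries. Batch 2 was the shallowest, with 0.137 to 0.19 of the depth of the deepest library, against 0.526 to 0.893 for batch 1 and 0.435 to 1 for batch 3. The culture carried NSC markers at high levels, with means of 11.12 log2 CPM for Vim, 10.16 for Nes and 7.93 for Sox2, and the oligodendrocyte-lineage factors Olig1 at 10.01 and Olig2 at 9.19. The astrocyte list was split, with Aldoc at 7.85 and Aldh1l1 at 5.97 but S100b at -0.14, Gfap at -0.46 and Aqp4 at -0.68. The neuron list was split too, with Map2 at 9.76, Syt1 at 4.83 and Tubb3 at 2.88, and Dcx at 0.97, Snap25 and Rbfox3 at 0.83 each and Stmn2 at -2.19. Smchd1 RNA did not differ by genotype past the test (MommeD43 minus wild type: FVB 0.05 ± 0.0597 (SE) on the log2 scale, limma adjusted p = 0.942). A B6GFP_WT library, replicate 4, stood apart from its mates: its quality weight in the fit was 0.101, the lowest of all, and the top 3 channel genes made up 46.8% of its channel RNA against 59.7% to 74.8% in the other libraries.

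What the pore-forming members share is the selectivity filter, the short loop that lets potassium through and holds back sodium. The coding sequences of the longest GENCODE vM21 transcript (GRCm38) were searched for codons for threonine or serine, any residue, glycine, then tyrosine, phenylalanine or leucine, and glycine. All 24 voltage-gated, 9 inward rectifier, 8 ion-activated, 8 tandem-pore and 3 modifier genes held the motif, and 0 of 8 auxiliary genes did. The 8 tandem-pore genes each held it 2 times, as did 2 voltage-gated genes. The stretches below are shown for abundant members and for calcium-activated genes that passed the test between the strains. Capitals mark the 5 codons of the motif in each 48-base coding stretch, read 5′ to 3′.
Kcnc1 (chr7:46396219-46438706): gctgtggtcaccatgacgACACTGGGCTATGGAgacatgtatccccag
Kcna2 (chr3:107090883-107115005): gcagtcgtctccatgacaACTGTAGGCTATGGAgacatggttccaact
Kcnn1 (chr8:70843158-70865691): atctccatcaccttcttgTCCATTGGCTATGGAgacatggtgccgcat
Kcnn3 (chr3:89520164-89672494): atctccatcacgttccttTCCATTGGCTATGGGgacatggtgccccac
Kcnn4 (chr7:24369826-24385212): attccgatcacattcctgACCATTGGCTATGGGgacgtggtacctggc

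The coordinates are those of the whole genes on GRCm38. In this stretch Kcnn1 and Kcnn3 were identical at 42 of 48 bases, and Kcnn3 and Kcnn4 shared 37.

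The NSCs held most of their channel RNA in a few genes. On the log2 CPM scale the highest means over the 22 libraries were those of Kcnc1 (8.86), a fast voltage-gated channel known from fast-spiking neurons, Kcnd3 (8.13), a pore of the transient A-type current, and Kcna2 (7.81), a delayed rectifier of the Shaker family. Together these 3 genes made up 65.4% of the summed CPM of the 60 genes. Next came Kcnip3 at 6.92, a calcium-binding auxiliary protein of Kcnd channels, then Kcnd2 (5.43), another A-type pore, and Kcnj16 (5.34) and Kcnj10 (4.85), inward rectifier subunits that assemble with each other. Kcnmb4 (4.55), a regulator of the large-conductance calcium-activated channel, Kcnv1 (4.51), a silent modifier subunit, and Kcnh2 (4.06), an ether-a-go-go related channel, completed the 10 highest.

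These levels count reads and so favour long transcripts. Divided by the summed length of all annotated exons, the order at the top was Kcnc1 at 5.62 log2 CPM per kilobase, Kcnip3 at 5.09, Kcnd3 at 4.87, Kcna2 at 4.24 and Kcnj16 at 3.36. The same 4 genes led on both scales, with Kcnip3 moving from place 4 to place 2 because its exons span 3546 bases against 9587 for Kcnd3.

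A mean of 0 log2 CPM, which is 1 CPM, separated 35 genes above from 25 below. That is 58.3% above, against 86.1% of all 14922 genes, and the median level of the channel genes was 1.48 log2 CPM against 4.54 for all genes. The genes just above the line were Kcnn2 at 0.01 and Kcnk13 at 0.71, and Kcnj11 lay just below it at -0.17. All 3 modifiers were above 0, as were 6 of 8 ion-activated, 5 of 8 tandem-pore, 5 of 8 auxiliary, 4 of 9 inward rectifier and 12 of 24 voltage-gated genes. The 12 voltage-gated genes below the line had a median of -1.40 log2 CPM. The lowest gene was Kcnj3, a subunit of G-protein-gated inward rectifiers, at -4.06, with 0 reads in all 6 batch 2 libraries.

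**Figure D1:**
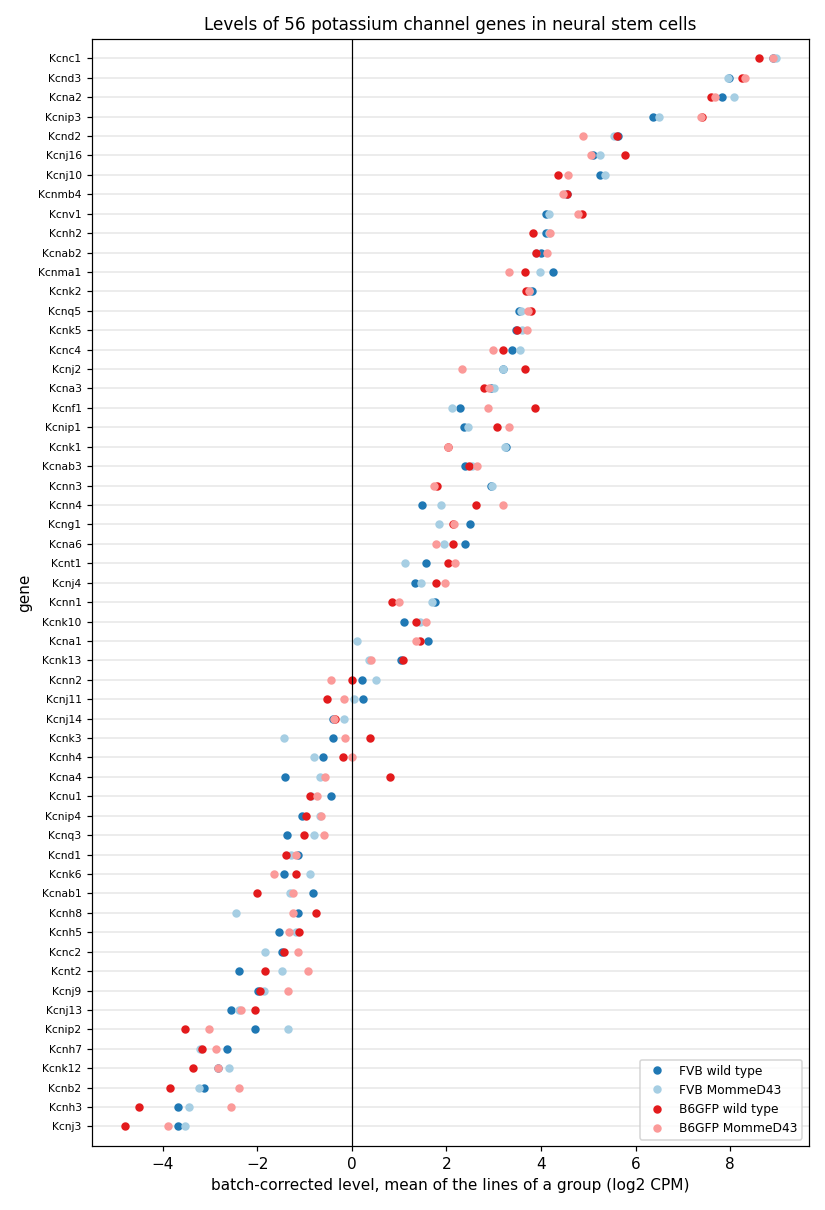
Mean level of 56 potassium channel genes in each of the 4 groups (log2 CPM, mean of the lines), ordered by the mean over all 22 libraries, with a line at 0. Kcnc1, Kcnd3 and Kcna2 lie at the top near 8 to 9, and the genes from Kcnj11 downwards have an overall mean below the line.

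The first comparison asked how the channel genes differ between the wild-type cells of the 2 strains. In wild type, 26 of the 60 passed the threshold (limma, Benjamini-Hochberg over all 14922 genes, adjusted p under 0.05), with 14 higher and 12 lower in B6GFP. That share of 43.3% stood beside 41.1% of all genes, and the median fitted change was -0.02 on the log2 scale for the channel genes and for all genes alike. Without quality weights 5 of the 60 passed (Kcnip3, Kcnj10, Kcnn1, Kcnn3 and Kcnv1), and 1259 of all genes. Of the 25 calls with the smallest p, 12 held in each of 17 fits that left out 1 line: those of Kcnip3, Kcnn3, Kcnv1, Kcnd3, Kcnn4, Kcnf1, Kcnn1, Kcnj10, Kcnip1, Kcnk1, Kcnip2 and Kcna4. The median size of the change was 0.30 for the channel genes above 0 log2 CPM against 0.17 for all genes above 0, and 0.37 for the channel genes below 0 against 0.49 for all genes below 0. Of the genes above 0 log2 CPM, 54.3% passed (all genes above 0: 42.6%), and of those below, 28% (all genes below 0: 31.8%).

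Auxiliary and modifier subunits gave some of the clearest strain differences. Kcnip3 was lowest at 5.83, median 6.41 and highest at 6.82 log2 CPM in FVB_WT, and 7.19, 7.41 and 7.68 in B6GFP_WT. The groups did not overlap, and the fitted change was 1.17 ± 0.121 (SE; limma adjusted p = 1.78e-07), a 2.25-fold higher level in B6GFP. Kcnv1 ran from 3.86 (median 4.14) to 4.29 in FVB_WT and from 4.67 (median 4.85) to 5.23 in B6GFP_WT, again without overlap, and was higher by 0.85 ± 0.121 (adjusted p = 1.14e-05). Kcnf1, a modifier of the same kind, ran from 1.49 (median 2.03) to 3.12 in FVB_WT and from 2.37 (median 3.31) to 6.08 in B6GFP_WT. The groups overlapped, the top value was that of replicate 4, and the fitted change was 1.36 ± 0.249 (adjusted p = 0.000182). Kcnip1, another Kcnd partner, was higher by 1.11 ± 0.219, and Kcng1, another silent modifier, was lower by 0.50 (-0.50 ± 0.164).

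The calcium-activated Kcnn genes, which code for channels that open when calcium rises inside the cell, moved in both directions. Kcnn3 ran from 2.53 (median 2.94) to 3.89 log2 CPM in FVB_WT and from 1.38 (median 1.78) to 2.21 in B6GFP_WT. The groups did not overlap, and B6GFP_WT was 2.69-fold lower (-1.43 ± 0.169, adjusted p = 1.04e-06). Kcnn1 ran from 1.54 (median 1.76) to 2.02 in FVB_WT and from 0.34 (median 0.84) to 1.202 in B6GFP_WT, also without overlap (-0.97 ± 0.184, adjusted p = 0.000274). Kcnn2, close to 0, changed by -0.71 ± 0.222. Kcnn4, the intermediate-conductance member, went the other way. It ran from 1.11 (median 1.19) to 2.53 in FVB_WT and from 1.22 (median 2.84) to 3.68 in B6GFP_WT, with overlapping groups and a fitted change of 1.74 ± 0.316 (adjusted p = 0.00017). Kcnma1, the large-conductance channel, was lower by 0.87 (-0.87 ± 0.328, adjusted p = 0.0397), the weakest of these calls, which held in 8 of the 17 fits.

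Among the voltage-gated genes the abundant ones moved little. Kcnd3 ran from 7.76 (median 7.95) to 8.10 log2 CPM in FVB_WT and from 8.09 (median 8.25) to 8.59 in B6GFP_WT. The groups met at their edges, and B6GFP_WT was 1.29-fold higher (0.37 ± 0.0636, adjusted p = 0.000109). Kcna2 and Kcnc1 were lower, by -0.25 ± 0.0632 and -0.20 ± 0.0669. Kcnq5, which carries M-type current, was higher by 0.31 ± 0.110. Kcna4, an A-type pore below 0 on average, was higher by 1.66 ± 0.474. Its levels were -1.42 ± 1.12 (SD over 5 lines) in FVB_WT and 0.81 ± 2.34 (4 lines) in B6GFP_WT. In B6GFP_WT, replicate 4 stood at 4.30 and the other libraries between -1.45 and 0.74. In FVB_WT, the batch 2 libraries of replicates 4 and 2 had 0 reads of Kcna4. Kcnh4 passed from levels below 0 in both strains, at -0.60 in FVB_WT and -0.20 in B6GFP_WT.

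Inward rectifier and tandem-pore genes were split. Kcnj10, the astrocytic potassium-uptake channel, ran from 4.57 (median 5.30) to 5.72 log2 CPM in FVB_WT and from 4.08 (median 4.27) to 4.70 in B6GFP_WT. The groups overlapped slightly and the fitted change was -0.83 ± 0.159 (adjusted p = 0.000296), 1.77-fold lower in B6GFP. All 5 astrocyte markers examined (Gfap, Aqp4, Aldh1l1, S100b, Aldoc) were also lower in B6GFP_WT past the test. Their summed level ran from 8.33 to 8.94 log2 CPM in FVB_WT and from 7.56 to 7.99 in B6GFP_WT, and its part in the Kcnj10 difference was not tested. In bulk RNA, fewer cells of a type and less RNA per cell cannot be told apart. Kcnj4, an inward rectifier of neurons, was higher by 0.57 ± 0.169. Kcnk1, a weak tandem-pore channel, was lower (-1.501 ± 0.298). Kcnk3, an acid-sensitive one, was higher by 0.86 ± 0.322, a call that held in 9 of the 17 fits. The genes Kcnab1, Kcnip2 and Kcnj3 were lower in B6GFP_WT from levels below 0. They stood at -0.82, -2.04 and -3.68 log2 CPM in FVB_WT and -2.01, -3.52 and -4.80 in B6GFP_WT. Their calls held in 12, 17 and 9 of the 17 fits, and Kcnj3 had 0 reads in the FVB_WT libraries of batch 2. Kcnk10 also passed, with the largest p of the 26.

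**Figure D2:**
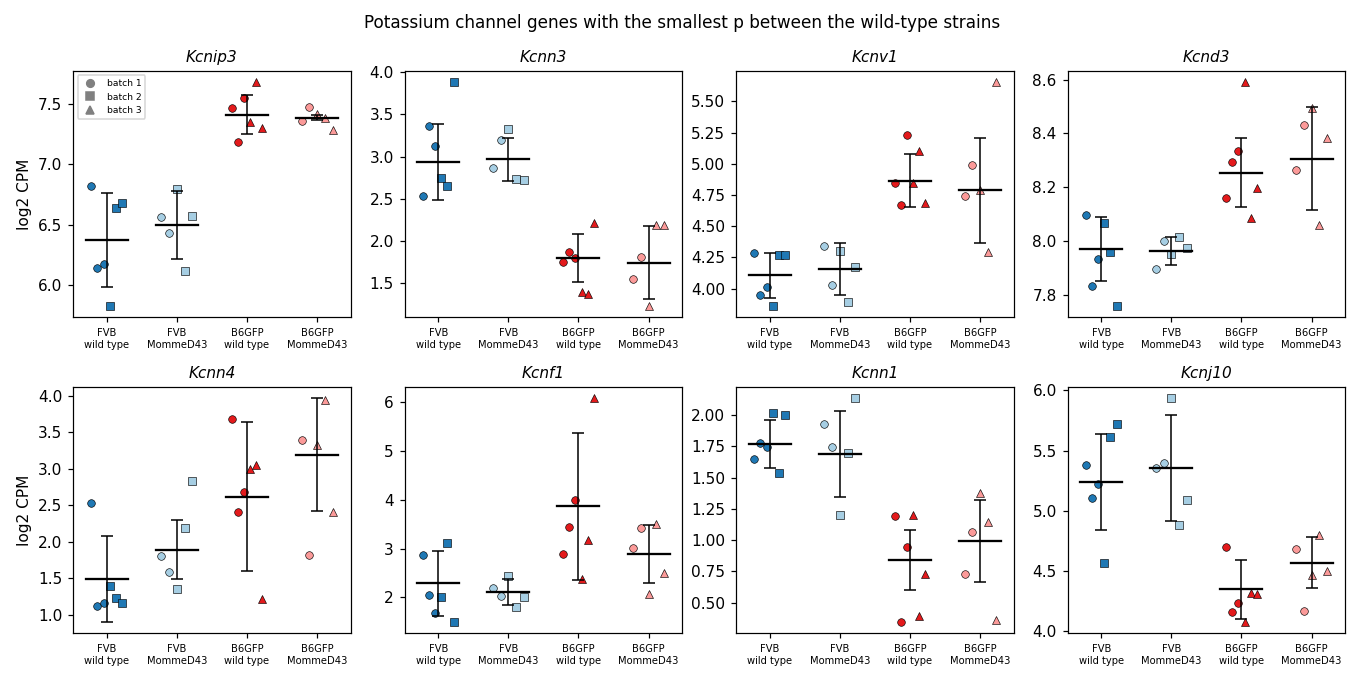
Level in every library (log2 CPM) of the 8 channel genes with the smallest p between the wild-type strains, by group, with the mean and SD over lines in black and the batch given by the marker shape. Kcnip3, Kcnv1, Kcnn3 and Kcnn1 show no overlap between FVB_WT and B6GFP_WT, and Kcnf1 in B6GFP_WT has a single library at 6.08.

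The strain comparison was repeated between the MommeD43 cells, which share no library with the wild-type groups but share the batch terms of the fit. There 21 of the 60 passed (35%, against 34.4% of all genes), with 10 higher and 11 lower in B6GFP. Without quality weights 2 passed (Kcnip3 and Kcnn3), beside 1017 of all genes. Of the 21, 18 had also passed in wild type, 69.2% of the wild-type calls and 85.7% of the MommeD43 calls. All 18 had the same direction. The same overlap was not counted over all genes, so it is not read as particular to the channel genes. Kcnip3 was higher by 0.92 ± 0.143, Kcnv1 by 0.72 ± 0.142 and Kcnd3 by 0.34 ± 0.0748, while Kcnn3 was lower (-1.39 ± 0.199), as were Kcnj10 (-0.83 ± 0.186), Kcnn1 (-0.93 ± 0.216) and Kcna2 (-0.41 ± 0.0744). In both genotypes the 5 astrocyte markers were lower in B6GFP, with a summed level of 8.53 to 8.98 log2 CPM in FVB_MD43 and 7.82 to 7.95 in B6GFP_MD43. Kcnh8 and Kcnj11 passed in MommeD43 and not in wild type. Kcnh8 had means below 0 in both groups, -2.46 in FVB_MD43 and -1.24 in B6GFP_MD43. Kcnj11 had means of 0.05 and -0.18 and a fitted change of -0.81 ± 0.277, which was -0.30 without quality weights. The difference between the genotypes passed the test for none of the 60 genes, as the strain difference of the MommeD43 effect gives below.

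Within batch 1 alone, which does not rest on the batch correction between strains, 13 of the 60 genes had B6GFP libraries (5, of both genotypes) that did not overlap the 5 FVB libraries, 21.7% against 26.3% of all genes. Kcnd3, Kcnf1, Kcnip3, Kcnk3 and Kcnv1 were the 5 higher in B6GFP. Lower were Kcnab1, Kcnd2, Kcnip2, Kcnj10, Kcnk1, Kcnn1, Kcnn2 and Kcnn3. In a fit of batch 1 alone 18 of the 60 genes passed in wild type, beside 5095 of all 14922 genes. Of the 18, 17 were among the 26.

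**Figure D3:**
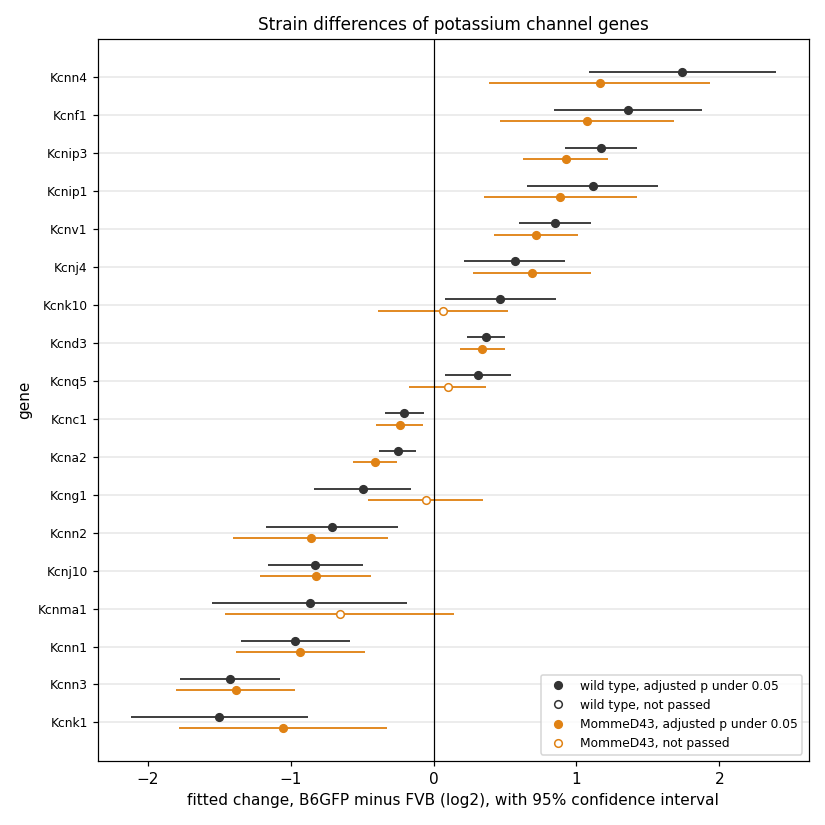
Fitted strain change (B6GFP minus FVB, log2 scale) with its 95% confidence interval for 18 genes above 0 log2 CPM that passed in wild type or in MommeD43 cells. Filled points passed the test and open points did not, and the Kcnn genes lie on both sides of 0.

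Genes lying next to each other did not always move together. Among the 60, 7 neighbouring pairs lay under 500000 bases apart. Kcnj9 and Kcnj10 lay 11888 bases apart on chromosome 1, and Kcnj10 was lower in B6GFP_WT while Kcnj9 had a level below 0 and did not pass. On chromosome 3, Kcna3, Kcna2 and Kcnc4 had fitted wild-type strain changes of -0.10, -0.25 and -0.30, of which that of Kcna2 passed. On chromosome 11, Kcnj16 and Kcnj2 lay 38196 bases apart with changes of 0.23 and -0.24, neither passing. In B6GFP_WT replicate 4 both were the highest of all 22 libraries, at 6.99 and 6.48 log2 CPM, a pair chosen after these values were seen.

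The second question was whether the MommeD43 mutation changes the channel genes. Few of them passed. In FVB, 1 of the 60 passed, Kcnh8, beside 0.0737% of all genes (11). In B6GFP 0 of the 60 passed by limma, as did 0% of all genes. There 1 of the 60 had an unadjusted p under 0.05, beside 319 of all 14922 genes. Averaged over both strains 1 passed, beside 0.0335% of all genes (5). At an unadjusted p under 0.05 there were 11 of 60 channel genes and 1024 of 14922 genes in FVB.

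Kcnc1, the most abundant member, did not pass in either strain, at 8.90 ± 0.156 and 8.97 ± 0.126 log2 CPM (SD over 5 and 4 lines) in FVB_WT and FVB_MD43, and 8.61 ± 0.247 and 8.91 ± 0.185 (4 lines each) in B6GFP_WT and B6GFP_MD43.

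Kcnh8, a slow voltage-gated channel of the Elk family, was lower in FVB_MD43, at levels below 1 CPM. FVB_WT ran from -2.10 (median -1.10) to -0.48 log2 CPM, and the FVB_MD43 libraries stood at -1.84, -3.14, -3.24, -1.87 and -2.66. The groups overlapped through a single FVB_WT library, and all 4 FVB_MD43 lines lay below the FVB_WT mean (limma adjusted p = 0.0311). With levels below 0 in both groups no fold is given. The B6GFP_WT libraries ran from -1.60 to -0.18 and the B6GFP_MD43 libraries from -1.997 to -0.34, with an adjusted p of 1. The FVB call was lost without FVB_WT replicates 2, 3 or 4 or B6GFP_WT replicate 3, and without quality weights (adjusted p = 1). Within batch 1 and batch 2 alone its adjusted p was 0.662 and 0.911.

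Kcna1, a delayed rectifier of axons, and Kcng1 had the next smallest p in FVB and did not pass. Kcna1 ran from -0.47 (median 1.80) to 2.94 log2 CPM in FVB_WT and stood at 0.22, -0.68, 1.03, -0.70 and 0.43 in FVB_MD43, a fitted difference of -1.70 ± 0.382 (adjusted p = 0.114). Kcng1 ran from 1.83 (median 2.69) to 3.27 in FVB_WT and stood at 2.14, 2.19, 1.43, 1.72 and 2.05 in FVB_MD43, a difference of -0.57 ± 0.145 (adjusted p = 0.191). Both pairs of groups overlapped. In B6GFP, Kcna1 ran from 0.16 (median 1.37) to 2.69 in wild type and stood at 0.43, 1.60, 0.10, 3.65 and 0.91 in MommeD43, and Kcng1 ran from 1.85 (median 2.14) to 2.38 and stood at 1.78, 2.43, 1.87, 2.59 and 2.43. Without FVB_MD43 replicate 2, both passed in FVB and 9 of the 60 passed, beside 981 of all genes.

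**Figure D4:**
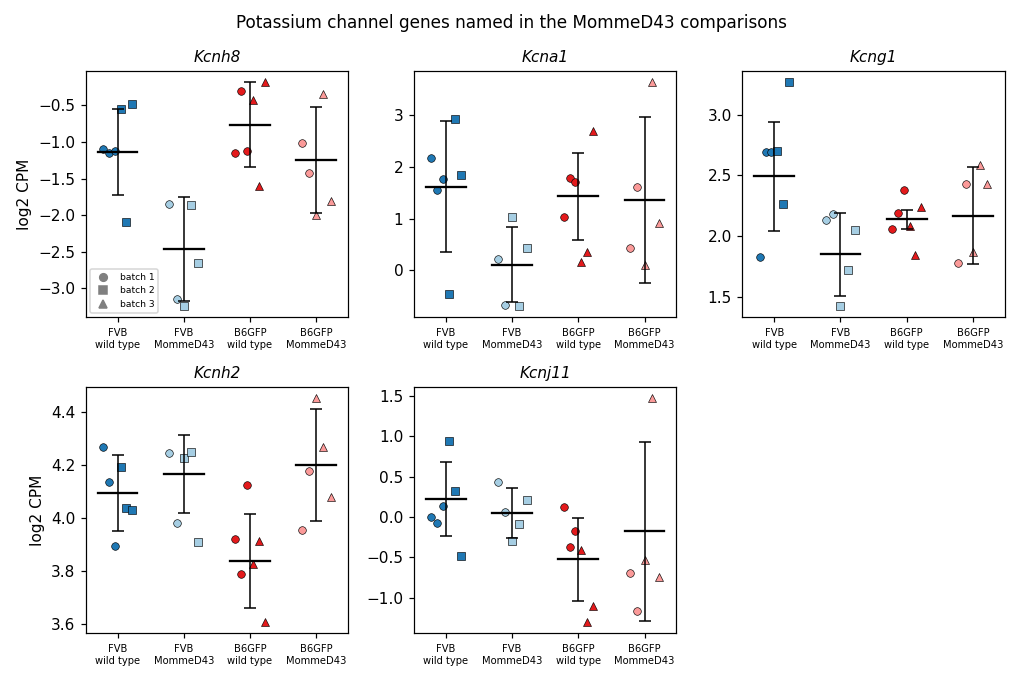
Level in every library (log2 CPM) of 5 channel genes named in the MommeD43 comparisons, by group, with the mean and SD over lines in black and the batch given by the marker shape. The FVB_MD43 libraries of Kcnh8 lie between -3.24 and -1.84 and overlap FVB_WT through a single library, and for Kcnj11 a single B6GFP_MD43 library of batch 3 stands far above its mates at 1.47.

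Among the genes with the smallest p in B6GFP were Kcnh2 and Kcnj11, a subunit of the ATP-sensitive channel. Kcnh2 ran from 3.61 (median 3.87) to 4.12 log2 CPM in B6GFP_WT and stood at 3.95, 4.18, 4.45, 4.27 and 4.08 in B6GFP_MD43 (difference 0.21 ± 0.112, adjusted p = 1). In FVB, Kcnh2 ran from 3.90 to 4.27 in wild type and from 3.91 to 4.25 in MommeD43. Kcnj11 ran from -1.30 (median -0.39) to 0.12 in B6GFP_WT and stood at -0.69, -1.16, -0.54, 1.47 and -0.75 in B6GFP_MD43 (adjusted p = 1), and from -0.48 to 0.94 and from -0.29 to 0.43 in the FVB groups. Both overlapped in each strain.

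Kcna2 was the single member whose FVB libraries did not overlap between the genotypes, a gene singled out after its values were seen. It ran from 7.68 (median 7.91) to 7.94 log2 CPM in FVB_WT and stood at 8.04, 8.10, 8.25, 8.001 and 8.03 in FVB_MD43. Of all genes 0.456% (68) did not overlap in the same way. The fitted difference was 0.19 ± 0.0558 (limma adjusted p = 0.307), which did not pass.

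The test of whether the MommeD43 effect differed between the strains passed for 0 of the 60 genes by limma and for 0% of all genes. At an unadjusted p under 0.05 there was 1 of the 60, beside 459 of all 14922 genes. The smallest p were those of Kcnh8, Kcna1 and Kcng1, each at adjusted p = 0.9998. The difference of the effects, B6GFP minus FVB, was 1.30 ± 0.626 for Kcna1 and 0.44 ± 0.238 for Kcng1, with 95% confidence intervals of -0.0003 to 2.61 and -0.05 to 0.94. Neither value was stable to single lines: it was 0.81 for Kcna1 and 0.21 for Kcng1 without B6GFP_MD43 replicate 3 and 1.88 and 0.79 without B6GFP_MD43 replicate 1, and neither passed in any of the 17 fits.

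**Figure D5:**
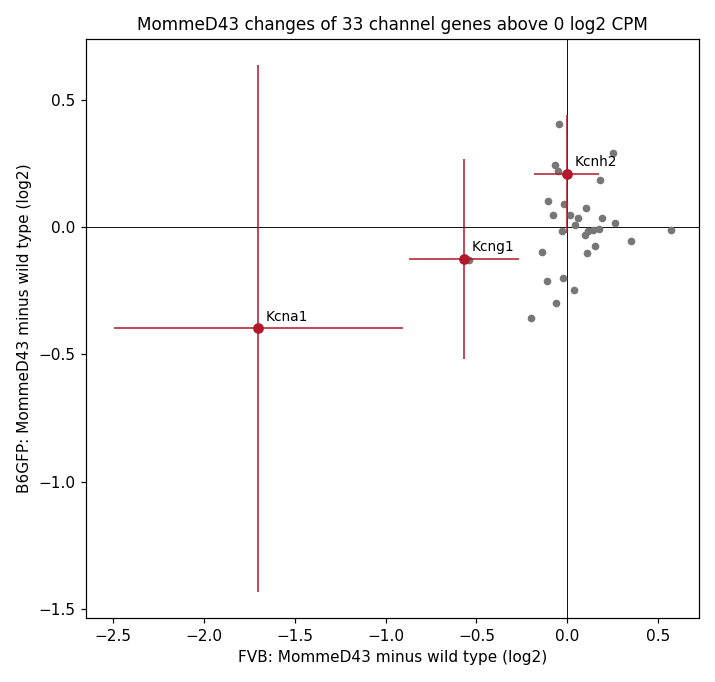
Fitted MommeD43 change in FVB (horizontal) against that in B6GFP (vertical), log2 scale, for 33 channel genes above 0 log2 CPM, with 95% confidence intervals on 3 named genes. Kcna1 lies at -1.70 in FVB and -0.40 in B6GFP.

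Other genes that handle potassium were read from a list of 25 pumps, cotransporters, related channels and accessory proteins, of which 22 were in the table. None of the 22 passed a MommeD43 comparison by limma. Between the wild-type strains 2 of the 22 were higher and 3 lower in B6GFP, while 41.1% of all genes passed. Slc12a2, the sodium-potassium-chloride cotransporter, was higher by 0.50 ± 0.0673. Lrrc55, an accessory protein of Kcnma1, was higher by 1.47 ± 0.444 in the fit, from line means below 0, -1.99 in FVB_WT and -1.27 in B6GFP_WT. Atp1b2, a subunit of the sodium pump, was lower in the weighted fit (-0.33 ± 0.128), while its line means were nearly equal, 6.63 in FVB_WT and 6.62 in B6GFP_WT. Between the MommeD43 strains 3 of the 22 were higher and 4 lower, while 34.4% of all genes passed. Atp1b2 was again lower there (-0.56 ± 0.151).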

How the data were processed

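The authors trimmed reads with Trim Galore 0.4.4, used HISAT2 2.0.5 for mapping to GRCm38.p6 and limma 3.40.6 for analysis. The deposited values are log2 CPM, batch corrected by the authors with libraries of another allele included. Depth was read from the steps between low values: 3143 of 3143 were whole multiples of 1 read (tolerance 0.02), so only relative depth is known and no counting interval is given.

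Models were fitted here with limma 3.58.1 in R 4.3.3 on all 14922 genes and 22 libraries, with group and batch terms, quality weights (0.101 to 4.90), the line as a block (correlation 0.0827) and a mean-variance trend. P-values were adjusted over all genes with a threshold of 0.05. Fitted changes weight libraries unequally and can differ from differences of group means. SD is over lines, a line with repeat libraries counted once. The fit was tested on simulated data with independent noise. That noise held no line, batch or quality differences, so the test could not check those terms. The labels name separate lines and do not say that each came from its own embryo. With a block correlation of 0.0827, repeat libraries of a line counted as nearly independent. The p-values thus measure the spread between libraries as well as between lines. With the mean of each line, 19 of the 60 passed between the wild-type strains, beside 5319 of all genes.

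The members and gene lists were chosen with earlier results of these data known. Named genes were, per comparison, those passing (at most 25) or the 3 with the smallest p. For levels they were the 10 highest and the genes just above and just below 0. Some genes named by this rule, and their sequences, are counted but not reported here. Of the marker lists, NSC summed levels were 12.37 to 12.93 log2 CPM, neuron 9.50 to 10.39, oligodendrocyte lineage 10.45 to 11.22, endothelial -1.66 to 2.70, and mesenchyme and pericyte -1.21 to 1.87. The 4 microglia markers had no row in the table used here.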

Additional observations from a re-analysis of the deposited data

Results flagged for a closer look

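In 13 genes whose values were given for every library, each group was checked for a library far from its mates (Dixon's test). Of 52 groups, 2 held one, and chance alone gives about 1 in 20. Kcnj11 stood at 1.47 in B6GFP_MD43 replicate 2 (batch 3), with the others between -1.16 and -0.54. Kcnn4 stood at 2.53 in FVB_WT replicate 1 (batch 1), with the others between 1.11 and 1.39.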

How the results depend on the processing

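Counts are of the 60 channel genes passing. Without quality weights they were 5 between the wild-type strains and 2 between the MommeD43 strains, beside 1259 and 1017 of all genes. In FVB and in the average of both strains they were 0. All 24 columns, 2 of which equal a group mean, gave 9 in FVB, 4 in B6GFP and 8 in the average. Of all genes 510, 480 and 1010 passed there. The 24 columns also gave 1 in the strain difference of the effect and 54 between the MommeD43 strains. Of all genes 61 and 13991 passed there. The mean of each line gave 0 in FVB and in the average, as did batch 1 alone. In FVB, batch 2 alone, a pseudocount of 1 CPM and a filter (above 0 log2 CPM in 4 libraries, which removes Kcnh8) each gave 0, and in the average a fit with no trend gave 0. Leaving out each line in turn gave 0 to 9 in FVB (9 without FVB_MD43 replicate 2, beside 981 of all genes). It gave 0 to 1 in B6GFP and 0 to 5 in the average. The highest counts of both came without B6GFP_MD43 replicate 3, beside 139 and 91 of all genes. Between the wild-type strains it gave 13 to 26. The count was 13 without FVB_WT replicate 2, beside 4014 of all genes. Without B6GFP_WT replicates 2 and 1 it was 16 and 17, beside 4546 and 5150 of all genes. Between the MommeD43 strains the counts were 16 to 26, with 26 beside 8179 of all genes without B6GFP_MD43 replicate 3. A replicate block gave 3 in FVB (all genes: 137) and changed no other count by over 1.5 times. Same-numbered lines correlated at -0.48 to 0.14, and 2 of 8 correlated best with their own number. No pairing by number was seen, though so few lines cannot exclude one. Some B6GFP lines of both genotypes share the number before the point in their names. Taking these as 1 block gave 24 between the wild-type strains, beside 5963 of all genes. The other alternatives kept the 6 counts within 1.5 times, 135 of 172 recomputed counts in all. Of the recomputed values of named genes, 1325 kept direction and call, 174 lost the call, 4 gained it and 2 reversed, both Kcnj11 in B6GFP (adjusted p = 0.995 without quality weights and 0.999 in batch 3 alone). The split at 0 log2 CPM was 35 and 25 by the mean of group means and by the median too. The cause of these changes was not tested. Depth limits the genes below 0 most, above all in batch 2.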
